A study of Mus musculus with 6 samples.

Results

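The genes described here encode the voltage-gated potassium (Kv) channels and the auxiliary subunits that assemble with them, in the somatosensory cortex of mice that lack *Mef2c*, a transcription factor gene, in forebrain excitatory neurons. They are the rows whose symbol starts with *Kcna*, *Kcnab*, *Kcnb*, *Kcnc*, *Kcnd*, *Kcne*, *Kcnf*, *Kcng*, *Kcnh*, *Kcnip*, *Kcnq*, *Kcns* or *Kcnv* followed by a number. This rule uses the gene symbol alone, but the group was chosen with earlier results of these data known. The rule gave 52 of the 21667 named genes in the tables. PolyA-selected RNA had been sequenced from 3 control and 3 *Mef2c* cKO adult male mice of a mixed SVeV-129 and C57BL/6J background. The *Mef2c* cKO mice carry 2 floxed *Mef2c* alleles (*Mef2c* fl/fl) and Cre recombinase inserted into *Emx1*, a gene switched on before birth in progenitors of the dorsal forebrain, so that Cre reaches cortical and hippocampal excitatory neurons and also part of the glia. The controls are littermates with the same floxed alleles and no Cre, so that effects of Cre and of the loss of *Mef2c* cannot be told apart. In each genotype replicate 1 was 14 weeks old and replicates 2 and 3 were 12 weeks old.

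Kv channels open when the membrane depolarizes and let potassium leave the cell, which ends the action potential, sets its width and limits the rate of firing. The pore is built from alpha subunits. Those of the *Kcna*, *Kcnb*, *Kcnc*, *Kcnd*, *Kcnh* and *Kcnq* subfamilies form channels of their own, while those of the *Kcnf*, *Kcng*, *Kcns* and *Kcnv* subfamilies are silent alone and modify *Kcnb* channels. *Kcnab* proteins are cytoplasmic beta subunits of *Kcna* channels, *Kcnip* proteins are calcium sensors bound to *Kcnd* channels, and *Kcne* proteins are small membrane-spanning subunits that modify *Kcnq* and other channels. In the cortex the subfamilies are divided over the cell surface, with *Kcna* channels on axons, *Kcnb* and *Kcnd* channels on the soma and dendrites, *Kcnc* channels in fast-spiking interneurons and *Kcnq* channels at the axon initial segment.

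The deposited values are RPKM, and for a given gene the length behind them differs from mouse to mouse. Whole read counts were therefore recovered from each table and divided by the recovered total of the mouse, which gave counts on a common library size (CPM) with no scaling by length. The recovered totals were 19306038 to 54075386 reads, the lowest in *Mef2c* cKO 2, and 99.82 to 99.91% of the values above 0 became whole counts. Over all 14636 genes tested, log2 values correlated with r = 0.992 to 0.995 between mice of a genotype and 0.978 to 0.981 across genotypes. *Mef2c* itself had 801, 773 and 801 CPM in the controls and 1233, 1278 and 1470 CPM in the *Mef2c* cKO mice. This is a count over the whole gene, which also holds exons outside the floxed part, so it does not check the deletion. *Emx1*, the gene that carries Cre, had 18.5 ± 1.92 CPM in controls and 5.27 ± 0.398 CPM in *Mef2c* cKO (mean ± SD, n = 3).

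Sequence windows are shown first for the genes at both ends of the range, *Kcnh5* with the largest decrease and *Kcne1l* with the increase, each with the member whose coding sequence was closest to its own, *Kcnh1* (71.3% identical bases over the longer sequence) and *Kcne4* (52.5%). The windows run from 250 bases before the transcription start to 50 after it (RefSeq, GRCm38.p6), are written 5′ to 3′ on the strand of the gene, and have in capitals each GC box, GGGCGG on either strand. They lie at chr12:75177283-75177582 (minus strand), chr1:192190527-192190826 (plus), chrX:142306149-142306448 (minus) and chr1:78816661-78816960 (plus).
*Kcnh5*: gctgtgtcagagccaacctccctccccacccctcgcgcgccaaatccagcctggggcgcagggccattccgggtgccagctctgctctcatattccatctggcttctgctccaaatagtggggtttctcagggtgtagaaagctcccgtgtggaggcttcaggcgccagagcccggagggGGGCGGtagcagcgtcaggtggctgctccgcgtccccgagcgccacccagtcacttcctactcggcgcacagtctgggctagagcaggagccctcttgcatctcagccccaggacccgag
*Kcnh1*: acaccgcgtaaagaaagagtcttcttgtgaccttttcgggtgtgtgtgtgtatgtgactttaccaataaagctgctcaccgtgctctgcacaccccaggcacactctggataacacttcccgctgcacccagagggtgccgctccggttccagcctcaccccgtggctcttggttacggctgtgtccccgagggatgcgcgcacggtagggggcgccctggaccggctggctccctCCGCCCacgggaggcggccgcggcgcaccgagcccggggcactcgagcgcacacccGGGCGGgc
*Kcne1l*: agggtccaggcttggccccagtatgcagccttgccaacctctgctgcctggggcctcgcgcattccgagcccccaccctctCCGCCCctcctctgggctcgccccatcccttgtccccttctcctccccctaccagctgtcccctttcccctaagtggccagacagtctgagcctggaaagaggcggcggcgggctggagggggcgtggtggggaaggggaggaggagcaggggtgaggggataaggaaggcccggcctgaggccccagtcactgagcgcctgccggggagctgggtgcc
*Kcne4*: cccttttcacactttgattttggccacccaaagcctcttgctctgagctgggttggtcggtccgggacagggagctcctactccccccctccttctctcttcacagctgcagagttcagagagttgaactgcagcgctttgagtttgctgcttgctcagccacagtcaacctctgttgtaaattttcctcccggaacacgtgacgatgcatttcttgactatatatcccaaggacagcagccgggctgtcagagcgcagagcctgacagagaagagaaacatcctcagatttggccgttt

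The windows of *Kcnh5* and *Kcnh1* held 1 and 2 GC boxes, that of *Kcne1l* 1 and that of *Kcne4* none. For 35 of the 52 members 51 windows were at hand, and 27 of these (52.9%) held a GC box, against 35.7% of all 32851 windows. The windows of the members were also richer in G and C, with a median of 59.7% against 52.7%. The MEF2 motif (its consensus as searched has 10 positions, both strands) was in none of the 51 and in 3.19% of all windows, and TGACGTCA, the cAMP response element, was in none of the 51 and in 1.79%. The TATA box letters TATAAA were in 1 window of a member, *Kcnab1*, and in 13.6% of all windows. These counts describe the letters in the windows and nothing about binding.

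Decreases outnumbered increases among the Kv genes. Of the 52 members, 45 passed the filter on low values (above 0.5 CPM in every mouse of at least 1 genotype), and *Kcne4* passed through the *Mef2c* cKO mice alone. Of these 45, 17 (37.8%) were decreased and 1 (2.2%) was increased by limma, with a Benjamini-Hochberg adjusted p under 0.05 over all 14636 genes and an absolute log2 fold change above 0.3. Over all genes tested, 7.79% were decreased and 5.89% increased. By the adjusted p alone 17 members were lower and 3 higher, against 9.24 and 7.06% of all genes, and past an absolute log2 fold change of 1 there were 3 lower and 1 higher, against 2.06 and 1.18%. The median log2 fold change (*Mef2c* cKO over control) was -0.22 over the 45 members and 0.01 over all genes, and was -0.12 over the members without *Mef2c* cKO replicate 3. Of the 45 members, 29 (64.4%) had a log2 fold change below 0, against 48.3% of all genes. The genotypes did not overlap in 23 of the 45 members, against 33.8% of all genes. In bulk tissue, fewer cells of a type and less RNA per cell cannot be told apart.

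**Figure D1:**
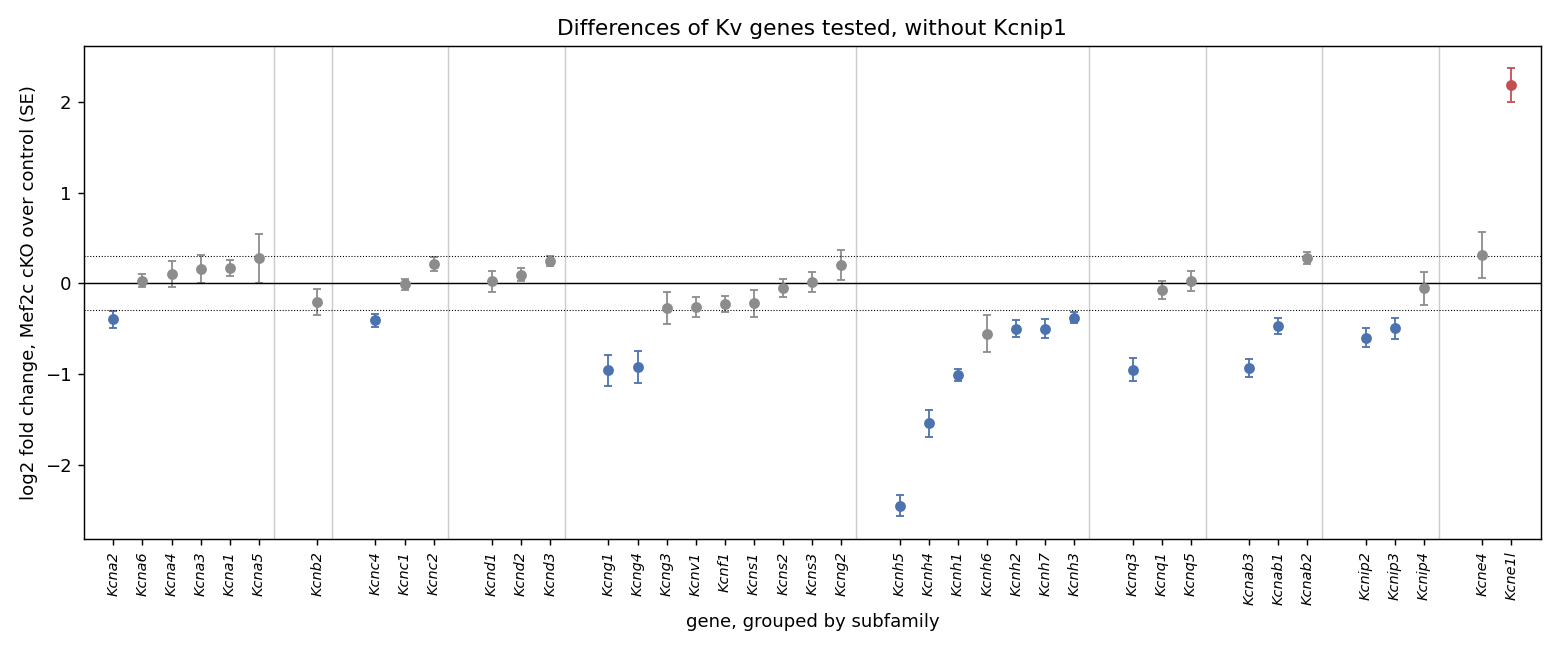
Log2 fold change (*Mef2c* cKO over control, 3 mice each) of 40 of the Kv genes tested, *Kcnip1* not among them, grouped by subfamily. Points are limma estimates and bars their SE, blue and red mark genes decreased and increased past both thresholds, grey the rest, and dotted lines lie at 0.3 on either side of 0. All 7 *Kcnh* genes lie below 0, *Kcnh5* lies lowest at -2.46 and *Kcne1l* highest at 2.18.

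The *Kcnh* subfamily held 6 of the 17 decreases. It comprises the EAG channels (*Kcnh1* and *Kcnh5*), which are delayed rectifiers, the ERG channels (*Kcnh2*, *Kcnh6* and *Kcnh7*), which pass current mainly on repolarization, and the ELK channels (*Kcnh3*, *Kcnh4* and *Kcnh8*). All 7 members tested had a log2 fold change below 0, with a median of -0.56. Summed over the subfamily, the level was 627 ± 28.1 CPM in controls and 388 ± 13.5 CPM in *Mef2c* cKO (mean ± SD, n = 3), with no overlap between mice.

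*Kcnh5* (chr12:75998204-76278319, minus strand, 11 exon blocks in the mm9 annotation) had 30.3, 29.7 and 31.0 CPM in controls 1, 2 and 3 and 6.21, 5.65 and 4.62 CPM in *Mef2c* cKO 1, 2 and 3, from 1031, 1465 and 1597 against 203, 109 and 250 reads. The genotypes lay far apart, with the lowest control above the highest *Mef2c* cKO mouse. The log2 fold change was -2.46 ± 0.12 (SE, adjusted p = 2.57e-06 in limma), a level 81.8% lower. Its close relative *Kcnh1* (chr1:194014666-194334041, plus strand) had 183, 177 and 208 CPM in controls and 95.7, 91.7 and 93.7 CPM in *Mef2c* cKO. The *Mef2c* cKO mice were tightly grouped, and the log2 fold change was -1.01 ± 0.07 (adjusted p = 1.72e-05 in limma). For every 100 reads on *Kcnh1* there were 16.1 ± 1.00 reads on *Kcnh5* in controls and 5.86 ± 0.817 in *Mef2c* cKO (exact permutation test, two-sided p = 0.1, the smallest that 3 against 3 mice allow). The ratio was lower in every *Mef2c* cKO mouse than in any control. This ratio and those given below were not planned, and they restate differences of their genes in the same mice. Their tests add no separate evidence.

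Among the ELK genes, *Kcnh4* (chr11:100601690-100621256, minus strand) had 27.7, 38.0 and 37.0 CPM in controls and 9.57, 12.6 and 12.8 CPM in *Mef2c* cKO. Replicate 1 was the lowest mouse in both genotypes. The log2 fold change was -1.54 ± 0.15 (adjusted p = 0.000139 in limma). *Kcnh3*, with the most reads of the subfamily, had 204, 227 and 210 CPM in controls and 159, 167 and 167 CPM in *Mef2c* cKO, a smaller log2 fold change of -0.38 ± 0.06 (adjusted p = 0.00214 in limma). The third ELK gene, *Kcnh8*, had at most 35 reads in a mouse and was not tested.

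The 3 ERG genes had like log2 fold changes, and 2 of them passed the thresholds. *Kcnh2*, known for the cardiac repolarizing current, had 34.5, 36.4 and 34.5 CPM in controls and 22.1, 24.3 and 28.3 CPM in *Mef2c* cKO, with a log2 fold change of -0.50 ± 0.09 (adjusted p = 0.00594 in limma). *Kcnh7* had 110, 121 and 126 CPM in controls and 82.6, 98.3 and 72.9 CPM in *Mef2c* cKO, with a log2 fold change of -0.50 ± 0.10 (adjusted p = 0.00977 in limma). Of its exon bases, 4.57% overlap *Gca* on the other strand, and the strand setting of the counting is not given in the sources used here. The same holds for *Kcna6* (39.5%), *Kcnab3* (5.13%), *Kcnq5* (3.07%) and *Kcnd3* (1.72%), which overlap noncoding transcripts on the other strand. *Kcnab2* overlaps a noncoding transcript on its own strand, over 2.24% of its exon bases. The effect of these overlaps on the counts was not tested. *Kcnh6* had 6.00, 4.92 and 3.83 CPM in controls and 3.55, 3.78 and 2.57 CPM in *Mef2c* cKO. The genotypes of *Kcnh6* did not overlap, but its log2 fold change of -0.56 ± 0.20 had an adjusted p of 0.101 in limma.

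Per length, the order of the *Kcnh* genes in controls was *Kcnh3* (57.8 CPM per kb of exon), *Kcnh1* (25.8), *Kcnh4* (8.66), *Kcnh7* (7.81), *Kcnh5* (7.47), *Kcnh2* (7.25) and *Kcnh6* (1.34). The levels of *Kcnh4*, *Kcnh7*, *Kcnh5* and *Kcnh2* overlapped between control mice. In *Mef2c* cKO the levels were 44.4, 12.8, 2.95, 5.56, 1.35, 5.14 and 0.899 CPM per kb in the same order, so that *Kcnh4* and *Kcnh5* lay below *Kcnh7* and *Kcnh2*. These lengths come from the gencode annotation of mm9 and not from the annotation used for counting.

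**Figure D2:**
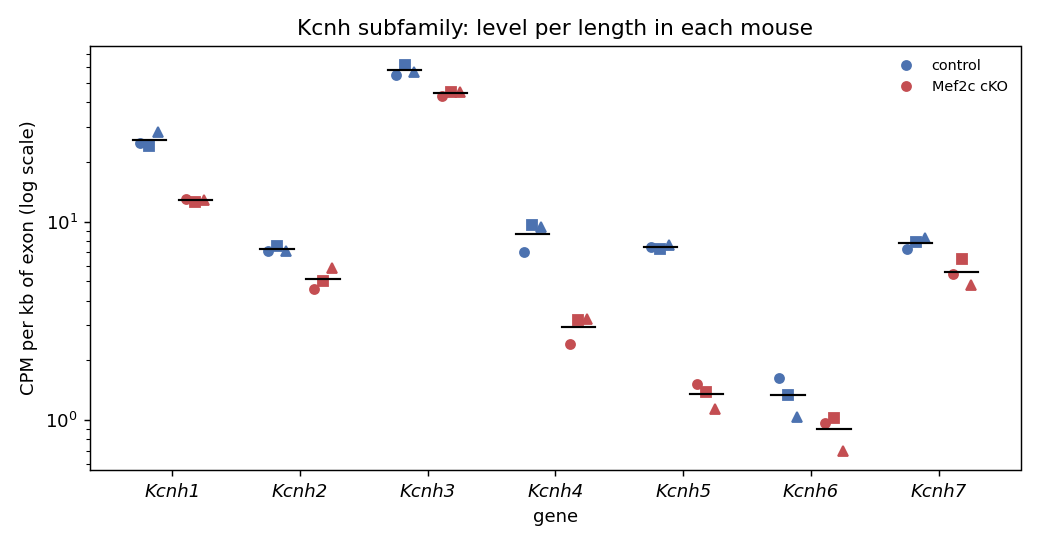
Level per length of 7 *Kcnh* genes in each mouse (CPM per kb of exon, log scale), controls in blue and *Mef2c* cKO in red, with circles, squares and triangles for replicates 1, 2 and 3 and a bar at the mean of 3 mice. The *Mef2c* cKO mice lie below the controls in every gene, by the widest gap in *Kcnh5* (7.47 against 1.35 CPM per kb).

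*Kcnq* channels carry the M-current, a slow current that restrains repeated firing. *Kcnq3* (chr15:65826733-66117786, minus strand) had 88.1, 101 and 128 CPM in controls and 56.9, 56.2 and 49.4 CPM in *Mef2c* cKO. The controls were spread widely, the *Mef2c* cKO mice were not, and the log2 fold change was -0.95 ± 0.12 (adjusted p = 0.000748 in limma). Per length it was at 40.4 CPM per kb in controls and 20.7 CPM per kb in *Mef2c* cKO. *Kcnq1* and *Kcnq5* were not past the threshold, with log2 fold changes of -0.08 ± 0.10 and 0.03 ± 0.11.

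*Kcna* channels are low-threshold channels of the axon, and the beta subunits encoded by the *Kcnab* genes bind them. *Kcna2*, found at the axon initial segment and beside the nodes of myelinated axons, was the only *Kcna* gene of 6 tested to pass the thresholds. It had 64.8, 54.0 and 66.3 CPM in controls and 43.6, 49.7 and 46.6 CPM in *Mef2c* cKO, with a log2 fold change of -0.40 ± 0.09 (adjusted p = 0.0155 in limma). The call was lost without control 1, control 3 or *Mef2c* cKO 1 (adjusted p = 0.0587, 0.0586 and 0.0547). *Kcna1*, its partner in many axonal channels and the *Kcna* gene with the most reads, had 348, 290 and 307 CPM in controls and 324, 383 and 355 CPM in *Mef2c* cKO, with a log2 fold change of 0.17 ± 0.08 (adjusted p = 0.227 in limma). Per 100 reads on *Kcna1* there were 19.6 ± 1.71 reads on *Kcna2* in controls and 13.2 ± 0.261 in *Mef2c* cKO. The ratio did not overlap between genotypes (exact permutation test, two-sided p = 0.1, the smallest possible). The other 4 *Kcna* genes tested had log2 fold changes of 0.03 to 0.28 and did not pass.

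The 3 beta subunit genes differed in the sign of their log2 fold change. *Kcnab3* (chr11:69139760-69146544, plus strand) had 134, 117 and 106 CPM in controls and 56.0, 68.3 and 62.0 CPM in *Mef2c* cKO, with a log2 fold change of -0.94 ± 0.10 (adjusted p = 0.000226 in limma). *Kcnab1*, whose product speeds the inactivation of *Kcna* channels, had 122, 112 and 116 CPM in controls and 90.0, 73.0 and 89.9 CPM in *Mef2c* cKO, with a log2 fold change of -0.47 ± 0.09 (adjusted p = 0.00507 in limma). *Kcnab2*, which takes part in bringing *Kcna* channels to the axon, had 311, 300 and 293 CPM in controls and 335, 387 and 373 CPM in *Mef2c* cKO. Its genotypes did not overlap, and the log2 fold change of 0.28 ± 0.07 had an adjusted p of 0.0196 in limma but was under the threshold of 0.3. Without *Mef2c* cKO 1 it was 0.34 and passed, while without control 2, control 3, *Mef2c* cKO 2 or *Mef2c* cKO 3 it was 0.23 to 0.27 and its adjusted p was above 0.05 (0.0591 to 0.0686). *Kcnab2* held 56.1 ± 1.13% of the reads of the 3 genes in controls and 71.3 ± 1.81% in *Mef2c* cKO (n = 3, exact permutation test, two-sided p = 0.1, the smallest possible).

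**Figure D3:**
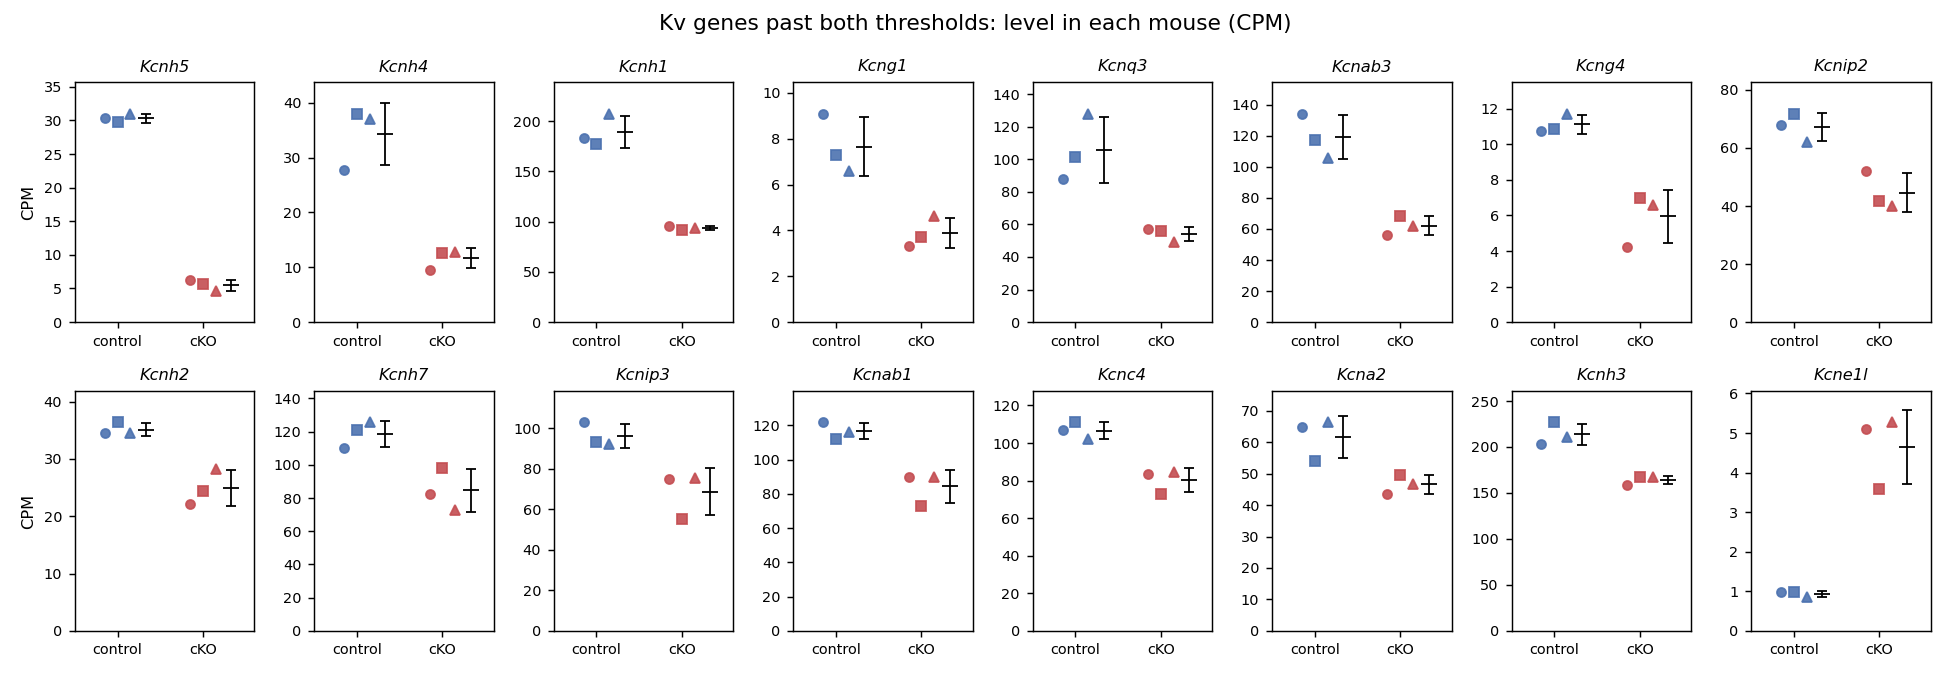
Level (CPM) in each mouse for 16 of the Kv genes past both thresholds, from the largest decrease (*Kcnh5*) to the increase (*Kcne1l*), with circles, squares and triangles for replicates 1, 2 and 3 and bars for the mean and SD of 3 mice. In all 16 panels, whose axes start at 0, the control mice (blue) and the *Mef2c* cKO mice (red) do not overlap.

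*Kcnb* channels are the main delayed rectifiers of the pyramidal cell soma. *Kcnb2* was at -0.20 ± 0.14 and was not past the threshold. Of the silent subunits, *Kcng1* and *Kcng4* were decreased, both from low levels. *Kcng1* had 9.09, 7.28 and 6.60 CPM in controls and 3.30, 3.73 and 4.62 CPM in *Mef2c* cKO, with a log2 fold change of -0.96 ± 0.17 (adjusted p = 0.00385 in limma). *Kcng4* had 10.8, 10.9 and 11.7 CPM in controls and 4.25, 6.99 and 6.58 CPM in *Mef2c* cKO, with a log2 fold change of -0.93 ± 0.18 (adjusted p = 0.0064 in limma).

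The other 7 silent subunit genes tested (*Kcnf1*, *Kcng2*, *Kcng3*, *Kcns1*, *Kcns2*, *Kcns3* and *Kcnv1*) had log2 fold changes of -0.27 to 0.20, and none passed. *Kcnv1*, which had the most reads of the silent subunits, had 142, 106 and 107 CPM in controls and 98.8, 99.1 and 94.7 CPM in *Mef2c* cKO. The control with 142 CPM stood apart from the others. *Kcnv1* had a log2 fold change of -0.26 ± 0.11 (adjusted p = 0.135 in limma), which was -0.12 without that mouse, control 1.

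*Kcnc* channels open only at strong depolarization and close fast, which lets neurons fire at high rates. Among the *Kcnc* genes, *Kcnc4* was decreased, with 107, 111 and 102 CPM in controls and 83.6, 72.9 and 84.4 CPM in *Mef2c* cKO and a log2 fold change of -0.41 ± 0.07 (adjusted p = 0.00402 in limma). *Kcnc1*, with the most reads, had 327, 327 and 301 CPM in controls and 302, 333 and 311 CPM in *Mef2c* cKO. Its log2 fold change was -0.01 ± 0.06 (adjusted p = 0.924 in limma). *Kcnc2* was at 0.21 ± 0.08 and did not pass. Per length, *Kcnc4* was at 35.4 ± 1.52 CPM per kb and *Kcnc2* at 36.3 ± 1.81 CPM per kb in controls (SD, n = 3).

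*Kcnd* channels carry the A-type current of dendrites, and its calcium sensor genes held decreases while its pore genes did not. None of the 3 *Kcnd* genes passed both thresholds. *Kcnd2* had 159, 165 and 156 CPM in controls and 159, 188 and 167 CPM in *Mef2c* cKO (log2 fold change 0.10 ± 0.07, adjusted p = 0.419 in limma). *Kcnd3* had 72.2, 71.8 and 70.8 CPM in controls and 87.2, 81.4 and 86.0 CPM in *Mef2c* cKO. The genotypes of *Kcnd3* did not overlap, and its log2 fold change of 0.24 ± 0.06 had an adjusted p of 0.0159 in limma but was under 0.3. Without control 3, *Mef2c* cKO 1 or *Mef2c* cKO 3 its adjusted p was 0.0505 to 0.0531.

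Of the calcium sensors, *Kcnip2* and *Kcnip3* were decreased. *Kcnip2* had 67.9, 71.8 and 62.1 CPM in controls and 52.2, 41.6 and 39.9 CPM in *Mef2c* cKO, with a log2 fold change of -0.60 ± 0.10 (adjusted p = 0.00393 in limma). *Kcnip3*, whose product is also known as the repressor DREAM, had 103, 93.4 and 92.1 CPM in controls and 75.2, 55.4 and 75.5 CPM in *Mef2c* cKO. Its log2 fold change was -0.50 ± 0.12 (adjusted p = 0.0173 in limma), and it was not past the threshold without control 1 (-0.45, adjusted p = 0.0649). *Kcnip4* varied widely within genotypes, from 142 to 236 CPM in *Mef2c* cKO, and its log2 fold change was -0.06 ± 0.18.

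*Kcnip1* stood apart from all other members. It had 4392, 1601 and 4120 CPM in controls and 2803, 3553 and 319 CPM in *Mef2c* cKO, and the genotypes overlapped fully apart from *Mef2c* cKO 3. Its log2 fold change of -1.06 ± 0.80 was not past the threshold (adjusted p = 0.433 in limma) and was 0.04 without *Mef2c* cKO 3. The same mice were high and low in *Lars2*, which encodes a mitochondrial leucyl-tRNA synthetase, with 3664, 1481 and 4524 CPM in controls and 2599, 3373 and 287 CPM in *Mef2c* cKO. *Cmss1* had 4825, 1751 and 4704 CPM in controls and 3104, 3984 and 338 CPM in *Mef2c* cKO, in the same order of mice as *Kcnip1*. Whether the 3 genes share reads was not tested. Without *Kcnip1* the other 51 members summed to 4366 to 4454 CPM in the controls and 3940 to 4232 CPM in the *Mef2c* cKO mice.

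**Figure D4:**
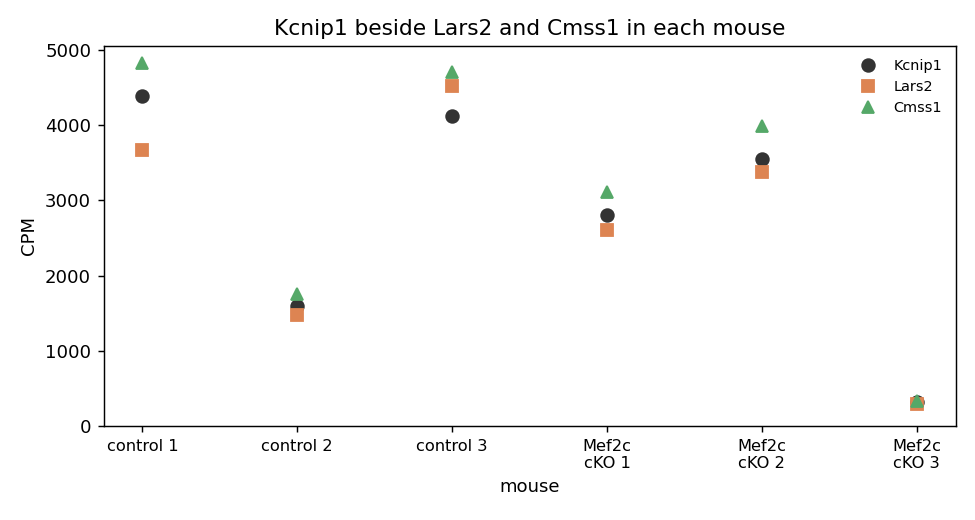
Level (CPM) of *Kcnip1* (circles), *Lars2* (squares) and *Cmss1* (triangles) in each of the 6 mice. All 3 genes are lowest in *Mef2c* cKO 3 (287 to 338 CPM), and their 2 highest mice are controls 1 and 3 (3664 to 4825 CPM).

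*Kcne1l*, also named *Kcne5*, was the only member increased. This small subunit gene (chrX:138739295-138740837, minus strand, 1 exon block) had 0.971, 0.973 and 0.854 CPM in controls and 5.11, 3.57 and 5.27 CPM in *Mef2c* cKO. The reads were 33, 48 and 44 against 167, 69 and 285, so that the controls were alike and the *Mef2c* cKO mice lay well above them. The log2 fold change was 2.18 ± 0.19 (adjusted p = 6.92e-05 in limma). *Kcne4*, the closest in coding sequence, had 0.441, 0.648 and 0.447 CPM in controls and 0.642, 0.518 and 0.814 CPM in *Mef2c* cKO. The genotypes of *Kcne4* overlapped, with a log2 fold change of 0.31 ± 0.25 (adjusted p = 0.479 in limma).

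The 7 members below the filter were *Kcna7*, *Kcna10*, *Kcne1*, *Kcne2*, *Kcne3*, *Kcnh8* and *Kcnv2*. *Kcne3* lay just under it, with 8 reads in each control and 18, 12 and 27 reads in *Mef2c* cKO (0.235, 0.162 and 0.155 against 0.55, 0.622 and 0.499 CPM). With no filter on low values it was fitted with a log2 fold change of 1.22 ± 0.14 and passed the thresholds (adjusted p = 0.0181 in limma). The fit does not model counting error, which is large at so few reads, so this SE can be too small. Apart from *Kcne3* and *Kcnh8*, these genes had at most 16 reads in a mouse. *Kcne1* had 0, 5 and 14 reads in controls and 0 in all *Mef2c* cKO mice, where a count of 0 allows up to 3 reads.

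Proteins that anchor or modify Kv channels were described by a list of 26 genes. Of these, 25 were tested, 4 were decreased and none increased (limma, median log2 fold change -0.10). Over all genes tested, the shares were 7.79% decreased and 5.89% increased. *Dpp10*, an auxiliary subunit of *Kcnd* channels, had 172, 176 and 181 CPM in controls and 92.0, 92.4 and 100 CPM in *Mef2c* cKO. Its log2 fold change was -0.90 ± 0.06 (adjusted p = 1.29e-05 in limma). *Stx1a*, a syntaxin of vesicle release that also binds Kv channels, had 398, 411 and 372 CPM in controls and 192, 198 and 183 CPM in *Mef2c* cKO, with a log2 fold change of -1.04 ± 0.06 (adjusted p = 6.95e-06 in limma). *Lgi1*, a secreted protein of the *Kcna* complex, and *Adam11*, which places *Kcna* channels at inhibitory terminals, were at -0.39 ± 0.06 and -0.37 ± 0.08. The genotypes did not overlap in 11 of the 25 genes, these 4 among them, against 33.8% of all genes.

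Of the other potassium channel genes (inward-rectifier, tandem-pore, calcium- and sodium-activated, 41 in the tables), 31 were tested, 6 were decreased and 1 was increased in limma, with a median log2 fold change of -0.07. The shares over all genes tested were 7.79% decreased and 5.89% increased. The largest changes were in *Kcnk4*, a mechanically gated leak channel (-1.07 ± 0.10), *Kcnt2*, a sodium-activated channel (-0.60 ± 0.10), and *Kcnj12*, an inward rectifier (-0.55 ± 0.11). The count of 7 fell to 3 without *Mef2c* cKO 1 and to 4 without *Mef2c* cKO 2. The difference between this group and the Kv genes was not tested.

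Markers of cell types moved within the same libraries, and their part in the Kv results was not tested. Beside the counts that follow, 7.79% of all genes tested were decreased and 5.89% increased. Of 12 pyramidal neuron markers, 4 were decreased and 4 increased in limma, the largest changes being in *Rasgrf2* (-1.96 ± 0.10) and *Rorb* (-1.74 ± 0.10), which mark upper and middle cortical layers. The summed level of that list was 6419 to 7663 CPM in controls and 6533 to 7567 CPM in *Mef2c* cKO. Of 10 interneuron markers, *Pvalb*, the marker of fast-spiking cells, was decreased (-0.80 ± 0.09) and 3 were increased, among them *Sst* (0.57 ± 0.15), with sums of 801 to 888 and 834 to 908 CPM. All 8 oligodendrocyte markers were higher, 2 of them past the thresholds (*Cldn11*, 0.77 ± 0.14, and *Mobp*, 0.64 ± 0.17), with sums of 3239 to 5318 and 5255 to 6752 CPM. Of 8 astrocyte markers, 5 were lower and 3 higher. Past the thresholds, *Gfap* (1.37 ± 0.15) and *Aqp4* (0.73 ± 0.06) were increased and *Aldh1l1* (-0.39 ± 0.075) was decreased. The list summed to 4741 to 5042 CPM in controls and 4174 to 4441 CPM in *Mef2c* cKO. Most of these reads lay on *Slc1a2*, with 3410 ± 150 CPM in controls and 2867 ± 140 CPM in *Mef2c* cKO (mean ± SD, n = 3). Its log2 fold change of -0.25 was under the threshold of 0.3.

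None of 8 microglia and 8 endothelial markers passed, with sums of 450 to 785 and 328 to 582 CPM for microglia and 250 to 283 and 241 to 255 CPM for endothelial cells. Markers of neighbouring regions were low. The 6 striatum markers found of 7 summed to 166 to 236 CPM in controls and 154 to 335 CPM in *Mef2c* cKO, with *Penk* alone past the thresholds (1.31 ± 0.13). The 6 thalamus markers summed to 57.7 to 67.0 and 49.2 to 56.9 CPM, with 2 decreased (*Rgs16*, -0.63 ± 0.17, and *Slc17a6*, -0.59 ± 0.15) and 1 increased, and *Gbx2*, a defining thalamic gene, at 0 in 4 of 6 mice.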

How the data were processed

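The authors selected polyA RNA, made directional libraries, used TopHat and Bowtie for alignment to mm9, HTSeq for gene counts, and scaled these to the RPKM that were deposited. The values are whole reads over lengths that repeat in a fixed cycle over genes in the order of their gene IDs, in cycles that differ between mice, so a gene has another length in each table. Totals and counts were recovered from these steps, and rows without a gene name (92, 0.0508 to 0.0753% of reads) were left out. The recovered counts summed to 99.96% of the totals.

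Genotypes were compared on log2(CPM + 0.1) with limma 3.58.1 (lmFit, eBayes with a variance trend) in R 4.3.3, for genes above 0.5 CPM in every mouse of at least 1 genotype with at least 2 recovered counts per genotype. A gene was called at a Benjamini-Hochberg adjusted p under 0.05 and an absolute log2 fold change above 0.3. The pseudocount understates the changes of low genes. Both steps were also run on simulated data, built with lengths in a cycle and an equal spread for all genes. That run cannot test whether the real data meet these assumptions. Tables were handled with Python 3.11.15, numpy 2.4.6 and pandas 2.3.3, coding sequences aligned with Biopython 1.88 and plots drawn with matplotlib 3.10.9. Named are every member called, those past only 1 of the 2 thresholds, and the member with the most reads in each subfamily, with at most 5 partners, 3 other channels and 2 markers a list, and genes added to these (*Kcne3*, *Kcnq1*, *Lars2*, *Cmss1* and others given by name) were chosen after their values were seen. Some members that this names are counted in the totals and not reported here. The members and lists were chosen with earlier results of these data known. Coordinates are those of gencode for NCBIM37 (mm9), found for 50 of the 52 members. The limma p-values rest on the spread between the 3 mice of each genotype, moderated by a variance trend over all genes tested.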

Additional observations from a re-analysis of the deposited data

How the results depend on the processing

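Of the 18 calls, 9 (among them *Kcnab3*, *Kcnc4*, *Kcne1l*, *Kcnh1*, *Kcnh3*, *Kcnh4*, *Kcnh5* and *Kcnq3*) kept their direction and call under 16 alternatives, which leave out the deposited RPKM and other thresholds, and none of the 18 changed direction under these. In the RPKM as deposited, where the lengths differ between mice, 33 members were tested by limma, none was decreased or increased (0 at the thresholds, 3 at an unadjusted p under 0.05) where 14 of all 7974 genes were called, the median was -0.47, no other potassium channel gene and no partner was called (0 and 0), and *Kcnab3* (1.37), *Kcnh1* (0.64), *Kcnh3* (0.56) and *Kcnh7* (1.46) had the opposite sign. With no filter on low values, 8 members were decreased, 2 increased (*Kcne3* being the second) and 4 other potassium channel genes called, over 21657 genes tested with 1181 called against 2002, and the calls lost included *Kcna2*, *Kcnab1*, *Kcng1*, *Kcng4*, *Kcnh2*, *Kcnh7*, *Kcnip2* and *Kcnip3*. The cause was not tested. An absolute log2 fold change above 1 left 3 decreases, 1 other channel and 1 partner. The adjusted p alone gave 3 increases and 7 partners. Without a variance trend 4 other channels were called. In the 12-week mice alone (2 per genotype, chosen after seeing the data) 15 members were decreased, *Kcna2* and *Kcnip3* having lost their calls (adjusted p = 0.139 and 0.0616 in limma), 3 were increased (*Kcne1l*, *Kcnab2* and *Kcnc2*) and 2 other channels called.

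Leaving out 1 mouse gave 15 to 16 decreases, 1 to 2 increases, 3 to 8 other channels, 4 to 5 partners and a median of -0.26 to -0.12. Same-numbered mice did not deviate together (r = -0.176, -0.111 and -0.080), and no mouse correlated best with its own number. With 3 mice per genotype this cannot exclude a pairing, for example by litter. Replicate 1 was also the older mouse in both genotypes. With the replicate number as a block, 17 members were decreased and 1 increased, and 1698 genes in all were called, while the adjusted p of *Kcnab2* and *Kcnd3* rose to 0.0629 and 0.0561 in limma. The 7 members under the filter on low values had at most 35 reads in a mouse.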
